A study of Mus musculus with 6 samples.

Results

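Schwann cells are the glia of peripheral nerves, and 5 genes that mark them were followed through islet RNA: Sox10, S100b, Gfap, Ngfr and Cdh19. They were found by symbol and are 5 of the 34245 genes in the deposited expression table. The RNA came from whole pancreatic islets of C57BL/6J mice aged 5 weeks, in 6 poly(A) libraries with 1 per animal code. For 3 libraries the conditional Abca12 allele had been removed by Rip1-Cre (KO). The mice of the 3 control libraries also carried Rip1-Cre and were heterozygous for the floxed Abca12 allele (HET). Cre was therefore present in every animal, driven by the rat insulin promoter, which is active in beta cells and is not a Schwann cell promoter. Abca12 encodes a lipid transporter. The contrast between the genotypes bears on how its loss in beta cells relates to islet RNA.

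In the pancreas, Schwann cells ensheathe the autonomic axons that enter the islets and form a thin layer around the islet edge, so islet preparations can carry them along with nerve fibres and ganglion neurons. Sox10 is the transcription factor that specifies and maintains the peripheral glial lineage. Cdh19 is a cadherin of Schwann cells and their precursors. S100b is a calcium-binding protein of glia. Gfap is the intermediate filament of non-myelinating Schwann cells. Ngfr is the low-affinity neurotrophin receptor, also called p75, which sympathetic and sensory neurons and stellate cells use as well. In bulk RNA, fewer cells of a type and less RNA per cell cannot be told apart.

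Library totals ran from 27447026 to 35511008 reads, and 3 reads corresponded to 0.0845 to 0.109 RPM, which are reads scaled to the library total. Abca12 had 2 reads in KO 1 and 0 in the other 5 libraries, too few reads to check the labels with. KO 1 and HET 2 had 9612 and 10494 Xist reads and 0 reads of the Y-linked gene Ddx3y. KO 3, HET 1 and HET 3 had 1, 5 and 1 Xist reads and 1470, 3156 and 1647 Ddx3y reads. Both genotypes thus held libraries of either kind. KO 2 stood apart in that it held 13659 Xist reads together with 1481 Ddx3y reads. Whether it came from 1 animal was not tested, and the differences of the 5 marker genes and of the lists of related genes are given with and without it. The libraries with the animal codes B114, B123 and B125 (KO 1, HET 1 and KO 2) also differed broadly from those with the codes B126, B127 and B130 (HET 2, HET 3 and KO 3). Among the 14238 genes averaging at least 1 RPM, the first 3 libraries lay wholly above the others for 16.8% and wholly below them for 31.3%. The labels do not say what the codes stand for and mark no break between B125 and B126. These shares, and later counts by code, therefore describe the split and do not test it. The first 3 are called lower-code and the others higher-code libraries.

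The promoters of Gfap, S100b and Ngfr, the 3 marker genes with a window in the promoter table used here, are shown because SOX proteins such as Sox10 bind a short heptamer that can be looked for in them. The heptamers searched on both strands were AACAAAG or AACAATG, then ATCAAAG or ATCAATG, then TACAAAG or TACAATG, then TTCAAAG or TTCAATG. Each window is from RefSeq (build GRCm38.p6), is written 5′ to 3′ on the gene's strand and runs from 250 bases before to 50 bases after the RefSeq start. Capitals mark a heptamer.
Gfap, chr11:102897151-102897450, minus strand: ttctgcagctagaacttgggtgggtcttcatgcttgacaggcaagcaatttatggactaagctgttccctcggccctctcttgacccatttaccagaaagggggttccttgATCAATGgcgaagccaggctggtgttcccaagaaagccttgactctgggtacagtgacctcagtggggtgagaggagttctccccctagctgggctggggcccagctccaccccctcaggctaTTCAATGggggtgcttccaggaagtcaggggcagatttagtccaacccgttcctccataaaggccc
S100b, chr10:76253586-76253885, plus strand: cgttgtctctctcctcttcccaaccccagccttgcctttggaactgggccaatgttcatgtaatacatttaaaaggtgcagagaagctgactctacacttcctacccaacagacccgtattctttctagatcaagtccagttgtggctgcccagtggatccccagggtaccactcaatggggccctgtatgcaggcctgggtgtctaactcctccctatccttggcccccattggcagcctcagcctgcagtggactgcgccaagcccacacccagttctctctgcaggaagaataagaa
Ngfr, chr11:95587649-95587948, minus strand: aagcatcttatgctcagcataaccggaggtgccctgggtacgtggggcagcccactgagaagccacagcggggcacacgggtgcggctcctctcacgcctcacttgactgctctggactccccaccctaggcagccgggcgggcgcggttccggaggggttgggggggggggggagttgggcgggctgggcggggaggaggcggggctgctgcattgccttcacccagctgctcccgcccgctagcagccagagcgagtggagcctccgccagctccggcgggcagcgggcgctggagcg
The Gfap window held 2 heptamers on the printed strand, an ATCAATG that starts at -139 and a TTCAATG that starts at -16 from the RefSeq start. The S100b and Ngfr windows held 0. Of 32851 promoter windows of the same length, 24.6% held at least 1 heptamer and 4.3% held 2 or more. A heptamer is a description of the sequence and not evidence of binding.

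Sox10 (ENSMUSG00000033006.10, chromosome 15, 79154913 to 79164490, GRCm38), the lineage factor, was close to the limit of detection in all libraries but 1. KO 1, KO 2 and KO 3 had 4, 51 and 2 reads, and HET 1, HET 2 and HET 3 had 1, 2 and 3 reads. In RPM these were 0.137, 1.71 and 0.0729 in KO and 0.0323, 0.0563 and 0.0905 in HET. KO 2 alone stood out, and the other KO libraries lay within or just above the HET range. The exact 95% Poisson interval of KO 2, 1.28 to 2.25 RPM, was clear of that of KO 1, 0.0373 to 0.351 RPM. Such intervals cover counting error only. The KO mean was 0.642 ± 0.93 RPM and the HET mean 0.0597 ± 0.0292 RPM (SD, n = 3 each), and KO 2 supplied 81.5% of the summed RPM of the 6 libraries.

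Cdh19 (ENSMUSG00000047216.8, chromosome 1, 110888326 to 110977584), the Schwann cell cadherin, followed the same outline. It had 16, 189 and 2 reads in KO 1 to KO 3, or 0.548, 6.36 and 0.0729 RPM. In HET 1 to HET 3 it had 11, 17 and 1 reads, or 0.356, 0.479 and 0.0302 RPM. KO 2 was 11.6 times the next library, KO 1, whereas KO 3 lay with HET 3 at the bottom. The KO mean was 2.33 ± 3.5 RPM and the HET mean 0.288 ± 0.232 RPM (SD, n = 3 each). As with Sox10, KO 2 supplied 81.1% of the summed RPM. Cdh19 reached a mean of 1 RPM through that library alone.

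S100b (ENSMUSG00000033208.7, chromosome 10, 76253853 to 76261159), the glial calcium-binding protein, was spread over more libraries. It had 18, 30 and 2 reads in KO 1 to KO 3, or 0.617, 1.01 and 0.0729 RPM. It had 9, 4 and 2 reads in HET 1 to HET 3, or 0.291, 0.113 and 0.0603 RPM. The 3 lower-code libraries were above the 3 higher-code libraries, and the genotypes overlapped because KO 3 was low. The end of S100b overlaps Dip2a on the opposite strand, at 10.9 to 24 RPM. No exonic base is shared with it. Whether reads were counted by strand is not given in the sources used here, so intronic reads of the partner could not be told from those of the gene.

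Gfap (ENSMUSG00000020932.14, chromosome 11, 102887336 to 102900912), the glial filament, was found in the lower-code libraries and in no other. KO 1, KO 2 and HET 1 had 8, 12 and 10 reads, which is 0.274, 0.404 and 0.323 RPM. KO 3, HET 2 and HET 3 had 0 reads, where 3 reads would be 0.109, 0.0845 and 0.0905 RPM. The HET library with reads thus lay between the KO libraries with reads. At this depth a level below those limits would not be detectable. The gene lies within Gm26668 on the opposite strand, which was at 1.46 to 2.08 RPM and shares no exonic base with it.

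Ngfr (ENSMUSG00000000120.6, chromosome 11, 95568818 to 95587735), the p75 receptor, had far more reads than the other markers. It had 575, 488 and 113 reads in KO 1 to KO 3, or 19.7, 16.4 and 4.12 RPM. It had 271, 173 and 113 reads in HET 1 to HET 3, or 8.76, 4.87 and 3.41 RPM. KO 1 was the highest library, not KO 2, and the lower-code libraries were again above the higher-code libraries. The KO mean was 13.4 ± 8.21 RPM and the HET mean 5.68 ± 2.77 RPM (SD, n = 3 each), with KO 3 below HET 2.

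**Figure D1:**
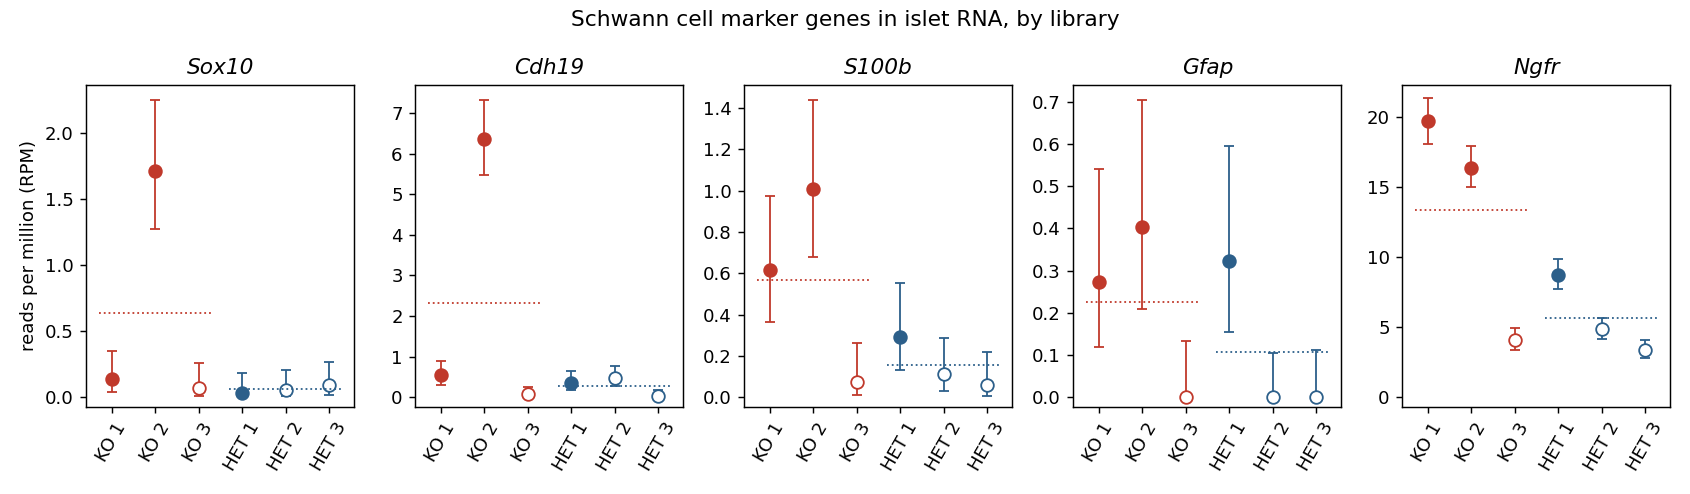
RPM of the 5 marker genes in each library (linear axes, 1 panel per gene; KO red, HET blue; filled points lower-code and open points higher-code libraries). Bars are exact 95% Poisson intervals and dotted lines are genotype means. Sox10 and Cdh19 are high in KO 2 at 1.71 and 6.36 RPM, while S100b, Gfap and Ngfr are higher in each filled point than in each open point.

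Per kilobase of merged annotated exons, the order of the mean levels over 6 libraries was Ngfr, Cdh19, S100b, Sox10 and Gfap. The mean levels were 2.77, 0.305, 0.243, 0.115 and 0.0395 RPKM (RPM per kilobase). Ngfr was the highest in all 6 libraries, from 0.989 RPKM in HET 3 to 5.72 RPKM in KO 1. S100b was above Sox10 and Gfap in all 6 libraries, though on 2 reads in KO 3 and in HET 3. The place of Cdh19 rested on KO 2. Cdh19 was above S100b in KO 2, at 1.48 against 0.68 RPKM, and in HET 2, at 0.112 against 0.0759 RPKM. It was below S100b in the other 4 libraries, for example at 0.128 against 0.416 RPKM in KO 1. The ranges of Cdh19, S100b, Sox10 and Gfap over libraries overlapped, and their order within libraries was not tested.

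Between the genotypes, none of the 5 marker genes passed. The test was limma's moderated test on log2(RPM + 1), fitted to all genes with a Benjamini-Hochberg adjusted threshold of 0.05. Ngfr and Cdh19 entered among the 14238 genes averaging at least 1 RPM, of which 0% passed. Sox10, S100b and Gfap were below that level and were read from a fit of all 22694 genes with a read, of which 0% passed too. At an unadjusted p under 0.05 limma had 250 of the 14238 genes (1.76%) and limma-voom on recovered reads 252. In the fit of 22694 genes limma had 2.49%. None of the 5 marker genes was among the genes under 0.05 in limma.

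The estimates were above 0 for each marker gene, with wide intervals. Ngfr differed by 0.96 on the log2 scale (95% interval -0.35 to 2.27) and Cdh19 by 0.85 (-0.74 to 2.45), both with limma adjusted p = 0.9998. Sox10 differed by 0.49 (-0.29 to 1.28), S100b by 0.40 (-0.13 to 0.92) and Gfap by 0.14 (-0.22 to 0.51), each with limma adjusted p = 0.9803. Adding 1 RPM compresses differences at these low levels. The authors' deposited table, which sets genes without reads to a small value instead, gives HET over KO fold changes of 0.213 for Sox10, 0.272 for Cdh19, 0.352 for S100b, 0.394 for Gfap and 0.478 for Ngfr. For none of the 5 genes were the 3 KO libraries all above the 3 HET libraries, which held for 4.2% of the 14238 genes and for 4.53% of the 22694.

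These differences depended on single libraries. Without KO 2 the log2 difference was 0.06 for Sox10 (-0.06 to 0.185) and 0.02 for Cdh19 (-0.70 to 0.74). It was then 0.195 for S100b, 0.04 for Gfap and 0.70 for Ngfr. Without KO 3 it was 1.59 for Ngfr (95% interval 0.77 to 2.40, limma adjusted p = 0.7051). Without KO 3 it was 0.65 for S100b (0.29 to 1.00, limma adjusted p = 0.5213). With a block for lower and higher codes the differences were 0.48 for Ngfr (-0.04 to 1.01), 0.23 for S100b (-0.09 to 0.56) and 0.01 for Gfap (-0.14 to 0.15). Within the lower-code libraries Ngfr was at 19.7 and 16.4 RPM in KO against 8.76 RPM in the lone HET library. Within the higher-code libraries the lone KO library, at 4.12 RPM, lay between the HET libraries at 4.87 and 3.41 RPM.

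**Figure D2:**
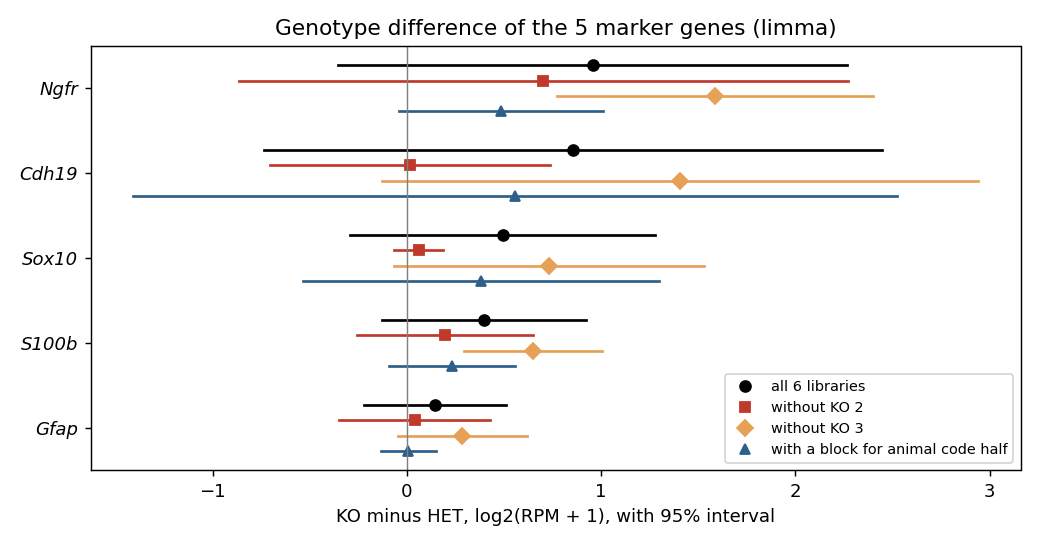
KO minus HET difference on the log2(RPM + 1) scale with 95% limma intervals, for the 5 marker genes under 4 fits. Leaving out KO 2 brings Sox10 and Cdh19 to 0.06 and 0.02, and leaving out KO 3 moves Ngfr to 1.59. The fit without KO 3 holds only lower-code libraries in KO.

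Read ratios within a library need no scaling. The intervals of Cdh19 with Ngfr and of S100b with Cdh19 were clear of each other between some libraries. Both pairs hold Cdh19, whose reads peaked in KO 2, and the intervals of the other pairs given here overlapped. Cdh19 made up 27.9% of the Cdh19 and Ngfr reads in KO 2 (189 of 677 reads, exact binomial 95% interval 24.6 to 31.5%). In KO 1, where Ngfr was highest, the share was 2.71% (16 of 591, 1.56 to 4.36%). It was 3.9% in HET 1, 8.95% in HET 2 (5.3 to 13.9%), 1.74% in KO 3 and 0.877% in HET 3. The interval of KO 2 was thus clear of those of the other 5 libraries, and that of HET 2 was clear of that of KO 1. Such intervals cover counting error only. Replicate libraries differed beyond it over all genes (chi-square over degrees of freedom of at least 17.8). How often other gene pairs had clear intervals was not counted. Sox10 and Cdh19, in contrast, were in a like ratio in KO 1 and KO 2, where Sox10 made up 20% (5.73 to 43.7%) and 21.3% (16.3 to 27%) of their reads. The other 4 libraries held 4 to 19 reads of this pair, with shares of 8.33 to 75% whose intervals overlapped that of KO 2. Gfap and S100b were also in a like ratio in KO 1 and KO 2, with Gfap at 30.8% (14.3 to 51.8%) and 28.6% (15.7 to 44.6%). In HET 1 it was 52.6% (28.9 to 75.5%), and the intervals overlapped. S100b made up 13.7% of the S100b and Cdh19 reads in KO 2 (9.44 to 19%), below 52.9% in KO 1 (35.1 to 70.2%) and 45% in HET 1 (23.1 to 68.5%), whose intervals lay clear of it. HET 2, at 19.05% (5.45 to 41.9%), overlapped KO 2, as did KO 3 and HET 3 with 4 and 3 reads. S100b among S100b and Ngfr reads was highest in KO 2 as well, at 5.79% (3.94 to 8.17%) against 3.04% in KO 1 (1.81 to 4.76%), and these intervals overlapped.

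**Figure D3:**
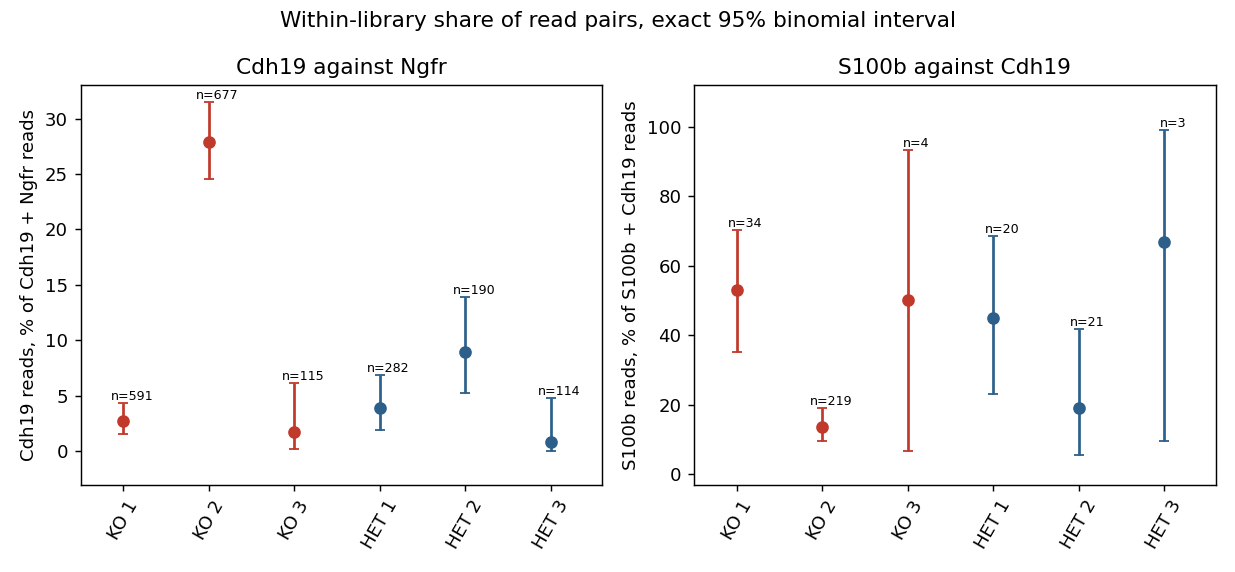
Share of Cdh19 among Cdh19 and Ngfr reads (left) and of S100b among S100b and Cdh19 reads (right) in each library, in percent, with exact binomial 95% intervals and the number of reads (KO red, HET blue). KO 2 is the highest of the left panel at 27.9%. In the right panel KO 2 is at 13.7% and KO 1 at 52.9%.

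Other genes of the Schwann cell lineage, from a list of 16, were likewise highest in KO 2. This held for 13 of the 16, and for 4 of the 5 marker genes, against 20.1% of the 14238 genes and 22.5% of the 22694. Scn7a, a sodium channel of non-myelinating Schwann cells, had 15, 412 and 1 reads in KO 1 to KO 3 and 31, 0 and 2 reads in HET 1 to HET 3. Kcna1, an axonal potassium channel that some Schwann cells also express, had 98 reads in KO 2 and 0 to 5 elsewhere. Gjc3, a connexin of myelinating glia, had 40 reads in KO 2, 1 in HET 2 and 0 in the other 4 libraries. Foxd3, a transcription factor of neural crest and glial precursors, had 28 reads in KO 2, 7 in HET 2, 4 in KO 1 and 0 elsewhere. HET 2, which held 17 Cdh19 reads, thus also held Foxd3.

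Sox10, Cdh19 and 6 of the 16 other lineage genes (Foxd3, Scn7a, Col28a1, Sostdc1, Gjc3 and Kcna1) were in KO 2 at 3 times the next library or more. This fold was chosen after the values were seen. Over all 22694 genes with a read, which include all of these, 2.3% met it. Over the 14238 genes averaging at least 1 RPM it was 0.0702%, or 10 genes, a share that is no background for the genes above. Sox10, Foxd3, Sostdc1, Gjc3 and Kcna1 averaged less. KO 2 also supplied 89.6% and 81.1% of the summed RPM of Scn7a and Cdh19. The 10 genes included Scn7a, Cdh19, Abca8a, Gpm6b, Sema3b, Col28a1, Kcna6, Aqp1 and Ntrk3. Abca8a, a member of the ABCA transporter family to which Abca12 belongs, had 1.13, 15.1 and 0.146 RPM in KO 1 to KO 3 and 1.91, 0.141 and 0.0302 RPM in HET 1 to HET 3. Gpm6b, a membrane glycoprotein gene of the proteolipid family, had 6.76 RPM in KO 2 and 0.291 to 1.27 RPM elsewhere. Ntrk3, the receptor of neurotrophin-3, had 3.63 RPM in KO 2 and 0.181 to 1.16 RPM elsewhere.

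Against genotype, 9 of the 10 lineage genes tested had a higher mean in KO and 1 a lower one, and 0 passed in limma. Their median log2 difference was 0.29, beside 0.01 over the 14238 genes, of which 51.4% were higher in KO. Without KO 2 the median was 0.06. Art3, an ecto-ADP-ribosyltransferase gene, differed by 0.81 (-0.57 to 2.19), and by 0.26 without KO 2. The most abundant lineage genes, Matn2 and Gfra3, had 139 to 231.8 RPM and 25 to 58.2 RPM. Gfra3, a receptor of the ligand artemin, was higher in each higher-code library than in each lower-code library, the opposite of Ngfr. Erbb3, the neuregulin receptor of Schwann cells, had 8.94, 14.9 and 6.52 RPM in KO and 10.5, 6.48 and 6.57 RPM in HET, so it remained well above Sox10 where Sox10 was near its floor.

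Myelin genes were less often highest in KO 2 by count, a difference that was not tested. Of 13, 6 were highest in KO 2. Of 8 tested, 6 had a higher mean in KO and 2 a lower one, and 0 passed in limma, with a median log2 difference of 0.17 (0.03 without KO 2 and 0.02 without HET 2). Pmp22, a peripheral myelin protein found in other cells too, had 11.6, 11.7 and 3.42 RPM in KO and 7.11, 3.55 and 3.08 RPM in HET, in the outline of Ngfr. Mbp and Cnp, myelin genes expressed in many tissues, had 60.5 to 78.7 RPM and 9.44 to 12.3 RPM and differed by -0.01 (-0.41 to 0.39) and 0.11 (-0.31 to 0.53). Mag, the myelin-associated glycoprotein, had 12 reads in KO 2 and 0 to 3 elsewhere.

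**Figure D4:**
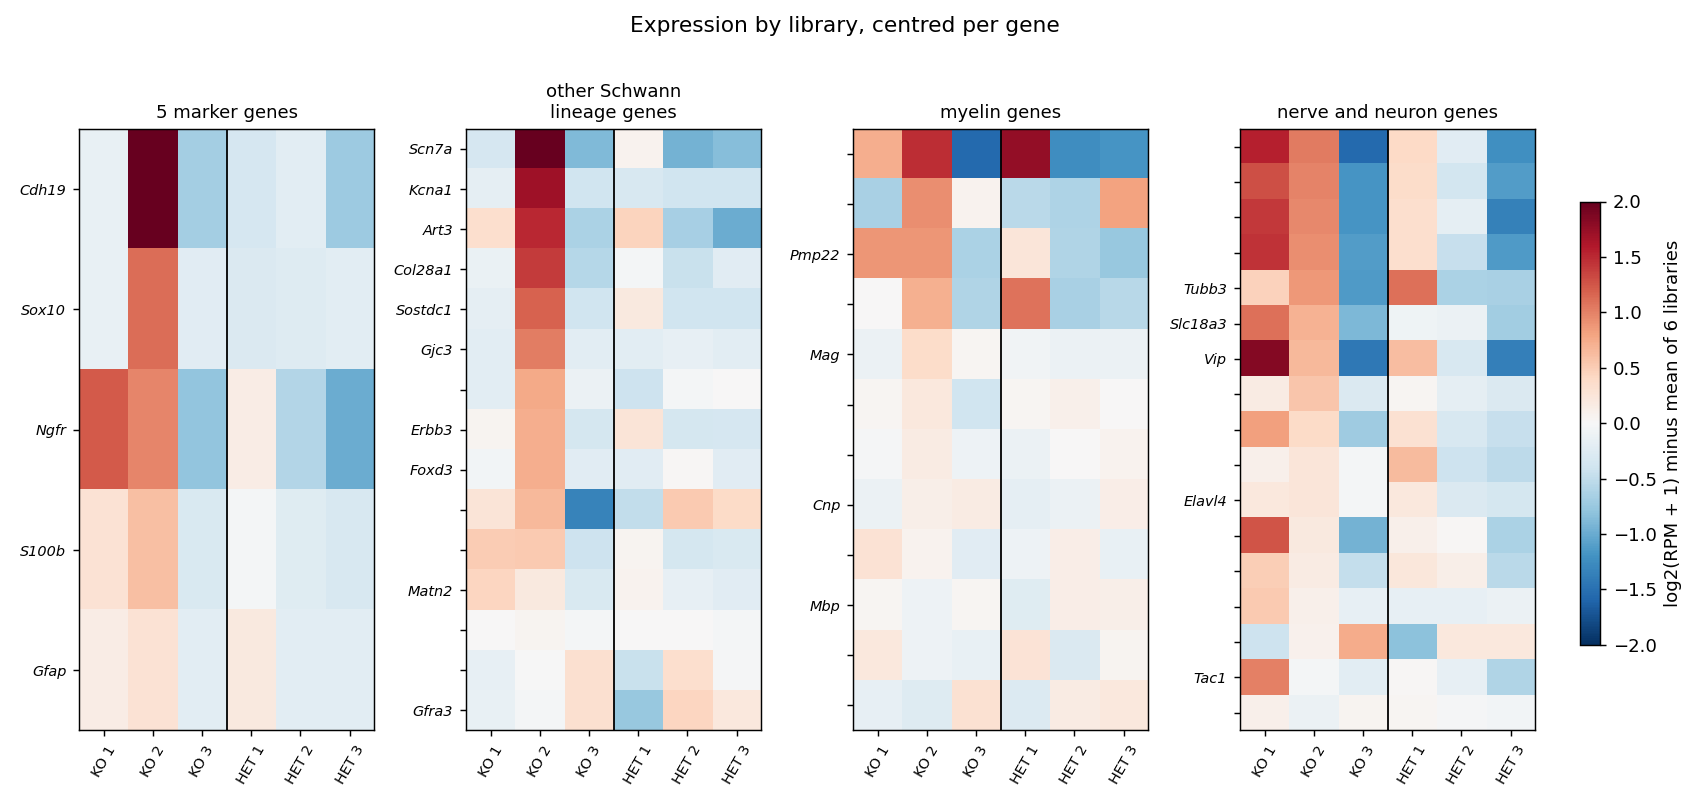
log2(RPM + 1) of each gene minus its mean over 6 libraries, for the 5 marker genes and for the lists of other Schwann lineage, myelin, and nerve and neuron genes; the black line separates KO from HET, values past 2 are drawn at 2, genes without reads or not reported here are left out, and rows are labelled where the text names the gene. Sox10 and Cdh19, at 1.71 and 6.36 RPM in KO 2, and most lineage genes are reddest in KO 2, and most nerve and neuron genes in KO 1.

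Nerve and neuron genes were mostly highest in KO 1, as was Ngfr. Of the 18 with reads, 13 were highest in KO 1, against 13.9% of all genes with a read, and 2 were highest in KO 2. Vip, a neuropeptide of intrapancreatic ganglia, had 55.1, 23.5 and 4.85 RPM in KO and 23.1, 11.6 and 5.1 RPM in HET. Slc18a3, the vesicular acetylcholine transporter of cholinergic neurons, had 100, 69 and 3 reads in KO 1 to KO 3 and 29, 32 and 9 reads in HET 1 to HET 3. KO 1 was the highest library for both.

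Of the 19 nerve and neuron genes, 15 were higher in each lower-code library than in each higher-code library, as were 3 of the 5 marker genes and 10 of the 16 lineage genes. Over all genes with a read this held for 16.1%. Acinar genes had the same split for 10 of 12. By genotype, 13 of 13 tested had a higher mean in KO and 0 passed in limma, with a median log2 difference of 0.50 (0.15 with the code block, 0.20 without KO 1, 0.35 without KO 2). Tubb3, a neuronal tubulin, was highest in HET 1 at 54.4 RPM and differed by 0.12 (-1.49 to 1.74), and by -0.27 without KO 2. Elavl4, an RNA-binding protein that endocrine cells also express, had 15.9 to 24.2 RPM and differed by 0.28 (-0.19 to 0.74). Tac1, which encodes substance P, had 4.04 RPM in KO 1 and 0.663 to 1.55 RPM elsewhere. Scn10a, a sodium channel of sensory neurons, had 0 reads in all 6 libraries.

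The ligands and receptors of these cells had several outlines across libraries. Bdnf, a neurotrophin ligand, had 0.323 to 1.48 RPM and was highest in HET 3, where Ngfr was lowest. Ntf3 had 1, 2 and 2 reads in KO and 0 in HET, all at or below the 3 reads taken as a floor. Such an order, with each KO library above each HET library, held for 4.53% of the 22694 genes with a read. Ntf5 had 0 to 4 reads. Among receptors and co-receptors, Ntrk2, the receptor of Bdnf, had 144.5 to 183.5 RPM, and Sort1, the co-receptor sortilin, 106.6 to 166.6 RPM. Nrg1, the axonal growth factor of Schwann cells, had 0.146 to 1.1 RPM, and Erbb2, the partner of Erbb3, had 1.16 to 3.06 RPM. Of 12 genes tested in this group, 9 had a higher mean in KO, 3 a lower one and 0 passed in limma, with a median log2 difference of 0.27 (0.08 without HET 1, 0.22 without KO 2). Ntrk3 differed by 0.81 (-0.07 to 1.69) and by 0.39 without KO 2. Gfra1, a receptor of GDNF, differed by 0.52 (-0.04 to 1.08) with KO 2 and by 0.52 without it.

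Markers of other cells that can express these genes were measured beside them. The 5 markers summed to 4.34 to 25.9 RPM (KO) and 3.59 to 9.76 RPM (HET), most of it Ngfr. The 5 central glia genes summed to 31.2 to 47.4 RPM (KO) and 33.3 to 52.9 RPM (HET). The oligodendrocyte genes Mog and Olig2 had 0 reads in all libraries, and most of the sum was the water channel gene Aqp4, at 30.4 to 50 RPM. Aldh1l1, an astrocyte marker that other tissues also express, had 0.582, 1.18 and 0.437 RPM in KO and 2.17, 1.55 and 1.39 RPM in HET. Each HET library was above each KO library, and the share of all genes with that order was not counted. The reverse order held for 4.2% of the 14238 genes averaging at least 1 RPM. Aldh1l1 did not pass in limma (unadjusted p = 0.026, adjusted p = 0.9998), and 1.76% of those genes had an unadjusted p under 0.05 in limma. Slc1a2, a glutamate transporter, had 3 to 20 reads. The 5 melanocyte genes, of a cell type that shares Sox10 and S100b, summed to 5.78 to 7.95 RPM (KO) and 5.14 to 8.02 RPM (HET). Most of it was Dct, a melanin synthesis gene, at 4.62 to 7.64 RPM, and Pmel had 8 to 22 reads. Tyrp1 had 0 reads in all libraries and Tyr had 1 read in KO 1. The part of these cell types in the marker levels was not tested. The 4 adipocyte genes, of a cell type that can express S100b, summed to 0.168 to 0.255 RPM (KO) and 0 to 0.121 RPM (HET), with Plin1 at 0 in all. Pericyte, stellate and fibroblast genes summed to 51.7 to 162.7 RPM (KO) and 43.5 to 118 RPM (HET), with none of the 11 at 0 in all libraries. KO 2 had the highest sum, and 6 of the 11 genes were highest there, as most lineage genes were. Among the 11, Rgs5, a pericyte marker, had 59.1, 77.9 and 13.1 RPM in KO and 45.4, 8.96 and 6.88 RPM in HET. That put the lower-code libraries on top as for Ngfr. Pdgfrb, a further pericyte gene, had the opposite order, with 4.39, 5.11 and 16.4 RPM in KO and 5.43, 16.4 and 16.1 RPM in HET. Acinar genes, with none of the 12 at 0 in all libraries, summed to 2965, 10789 and 789.5 RPM in KO 1 to KO 3 and to 25831, 692.3 and 408.3 RPM in HET 1 to HET 3. The lower-code libraries were on top here too, led by HET 1, where Sox10 had 1 read. The part of acinar cells and pericytes in the levels of Ngfr, S100b and Gfap was not tested. Endothelial genes summed to 205.9 to 254.6 RPM (KO) and 205.7 to 230.2 RPM (HET), and macrophage genes to 84 to 114.8 RPM (KO) and 79.8 to 115.8 RPM (HET). Beta cell genes summed to 107870 to 140880 RPM (KO) and 109420 to 117040 RPM (HET).

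The label of Schwann cell markers was thus borne out to different degrees by library. In KO 2 all 5 genes were detected, with 51 Sox10 reads, together with Scn7a, Foxd3 and Gjc3. KO 1 also held all 5, each above 3 reads, with 4 reads of Sox10, 15 of Scn7a, 4 of Foxd3 and 0 of Gjc3. HET 1 had reads of all 5, but its 1 Sox10 read was below the floor of 3 reads. It had 31 reads of Scn7a and 0 of Foxd3 and of Gjc3. In KO 3, HET 2 and HET 3 Gfap had no read, and in KO 3 and HET 3 Foxd3 had none either. Ngfr was well detected in all 6. Scn7a, Foxd3 and Gjc3 were named after their values were seen. Of the 16 other lineage genes 13 were highest in KO 2, but not all by a wide margin. Fabp7 had 30 reads in KO 1 and 31 in KO 2, and Erbb3 had at least 179 reads in every library.

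The 5 genes nearest to the mean profile of the marker genes were Tmem255b, Sema5a, Cep162, Gm36989 and Pxdc1. Likeness was the root mean square difference over 6 libraries between log2(RPM + 1) values centred on each gene's mean. It was 0.119, 0.123, 0.131, 0.135 and 0.144 on the log2 scale, in the same order. Sema5a, a semaphorin of axon guidance, had 2.84, 5.82 and 1.68 RPM in KO and 2.71, 2.31 and 1.72 RPM in HET. Tmem255b, a membrane protein gene, had 1.61, 2.49 and 0.401 RPM in KO and 0.873, 0.619 and 0.573 RPM in HET. For both, KO 2 was the highest library and KO 3 the lowest.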

How the data were processed

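The authors deposited log2 values of 1 number for each gene in each library. The submitters' processing notes name HISAT2, DESeq2 and GRCm38 without role or version. No source used here names the counting program. On the linear scale the deposited values are whole multiples of 1 read (100% of 93649 low values, tolerance 0.01 read), and a gene without reads stands at 0.9 read. Reads, totals and RPM were recovered from these steps. The authors' deposited table also holds fold changes, which are HET divided by KO. A deposited sheet of 3 genes was not used here.

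Groups came from the genotype labels. Replicates were numbered in the order of the records, so numbers pair no libraries. limma 3.58.1 (R 4.3.3), using its trend and robust options, was run on log2(RPM + 1) over genes averaging at least 1 RPM, since the planned count test needs another unit. It was also run on simulated data with the same spread for every gene and no animal code split. That setting is simpler than these libraries. Alternatives covered pseudocounts, filters, scaling, limma-voom, moderation, an acinar covariate, a block for animal codes from B126 up, and leaving out each library. Gene identifiers and exon lengths are from GENCODE M21, which shares name and position with 29416 genes (85.9%). Sox10 was matched by symbol, since its deposited position differs from that of GENCODE M21. RefSeq promoters were at hand for 3 of the 5 marker genes. Named genes were the 5 markers, the 2 most abundant and the 2 with the lowest p of each related list, the neurotrophin and neuregulin partners, and the 5 nearest profiles; others were named after their values were seen, and some results are not reported here. Marker genes and lists were chosen with earlier results of these data known. Replicate libraries differed beyond sampling noise (chi-square over degrees of freedom of at least 17.8). Figures were drawn with matplotlib 3.10.9.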

Additional observations from a re-analysis of the deposited data

How the results depend on the processing

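In limma 0 genes were called as reported and in each of 16 alternatives (lowest adjusted p from 0.0965 with the code block to 1). The 5 marker genes stayed above 0 and uncalled in every alternative run. Leaving out 1 library at a time gave log2 differences of 0.06 to 0.73 for Sox10, 0.02 to 1.41 for Cdh19, 0.195 to 0.65 for S100b, 0.04 to 0.28 for Gfap and 0.58 to 1.59 for Ngfr. The other alternatives gave 0.38 to 2.04, 0.56 to 1.81, 0.23 to 1.48, 0.01 to 1.68 and 0.48 to 1.09 in the same order, the highest of each with limma-voom. Gfap lies below a filter of 0.2 RPM and has no value there. The 4 nerve and glial list medians were above 0 in each of their 14 alternatives. No paired analysis was possible because the labels give no replicate numbers, only animal codes. Depth limits Sox10, S100b and Gfap, with 1 to 51, 2 to 30 and 0 to 12 reads a library.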
